A study of Papio anubis with 40 samples.

Results

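The miR-30 family was followed in the blood plasma of 8 olive baboons (Papio anubis) after experimental endometriosis. The members were taken by name from the deposited count table: miR-30a-5p, miR-30b-5p, miR-30c-5p, miR-30d-5p, miR-30e-5p, miR-30a-3p and miR-30e-3p. These 7 names lie in 6 of the 2731 rows of the table, because miR-30b-5p and miR-30c-5p share a joined row that cannot be divided between them. Of all rows, 689 had a count in any library and 318 had enough counts to be tested, and all 6 miR-30 rows were among the latter. The family was chosen by the log2 changes of its members from month 0, with earlier results of these data known, among them that of miR-30e-5p at months 9 and 15. Values of the members at those months are given as a description, with no p-value.

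Each baboon was bled before inoculation (month 0) and 3, 6, 9 and 15 months after menstrual tissue had been placed in its peritoneal cavity by laparoscopy, which gave 40 small-RNA libraries, 8 at each month. The labels give 0.5 mL of plasma per sample and no drug treatment in any group, while the series text speaks of serum. Every animal was inoculated. Time after inoculation, ageing and the storage time of the samples therefore cannot be told apart, and neither can release by more cells and more RNA per cell. The library numbers run animal by animal and, within an animal, by month.

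MicroRNAs are short RNAs that guide Argonaute proteins to messenger RNAs and lower their output, largely through the seed, a stretch near the 5′ end. The 5p arms of the miR-30 family share their seed and so are predicted to share targets, while the 3p arms, cut from the other strand of the same hairpins, carry another seed. In human and mouse the family is abundant in epithelia, kidney and endothelium and has been studied for its part in epithelial state, fibrosis and autophagy. The mature sequences of miR-30a-5p and miR-30e-5p are nearly the same in human, as are those of miR-30b-5p and miR-30c-5p. It is unknown how reads were assigned to such relatives. The division of counts between miR-30a-5p and miR-30e-5p is therefore uncertain. That between other members, 5p or 3p arms, could not be checked either, since no sequences came with the rows. The order of levels and the ratios given below take this division as it stands.

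Total counts ran from 696873 to 5824111 per library. miR-122-5p, which hepatocytes make in great excess, took 0.307% to 78.6% of the counts of a library, with the highest share in the month 9 library of PA8001. The haemolysis index (log2 level of the red cell microRNA miR-451a minus that of miR-23a-3p/23b-3p, another joined row) ran from -3.43 in the month 15 library of PA8872 to 1.49. Together the 6 miR-30 rows held 1.30% to 4.64% of the counts of a library, with a median of 2.72%.

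The 5p arms of miR-30e and miR-30d were the most abundant members. Levels are given as CPM, counts set to a common library total after TMM scaling, which corrects that total for composition. Over the 40 libraries miR-30e-5p had a mean of 12024 ± 4833 CPM (SD) and was the 16th most abundant of the 318 rows tested. miR-30d-5p followed with 9104 ± 2349 CPM and miR-30a-5p with 3397 ± 1452 CPM. The 3p arms were lower, with 1616 ± 430 CPM for miR-30e-3p and 911 ± 340 CPM for miR-30a-3p. The joined miR-30b-5p/30c-5p row was the least abundant and the most variable, with 229 ± 229 CPM and a range from 40.2 to 1205 CPM.

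This order was compared between neighbours with an exact two-sided sign-flip permutation test over the 8 baboons, each taken as the mean of its 5 libraries, and adjusted over the 5 pairs. The smallest p this test allows is 0.0078125 before adjustment. The order was taken from the mean levels of the same 40 libraries, months 9 and 15 included. A p over these libraries would be no independent test of the order, so none is given, only the number of baboons in which it held. The order also takes the division of counts between members as given. Of the 5 neighbouring pairs, 4 differed in the same direction in 8 of 8 baboons. miR-30d-5p exceeded miR-30a-5p by 1.495 ± 0.30 on the log2 scale (SD over baboons), miR-30a-5p exceeded miR-30e-3p by 1.00 ± 0.41, miR-30e-3p exceeded miR-30a-3p by 0.88 ± 0.43, and miR-30a-3p exceeded the joined row by 2.39 ± 0.80. The top pair was closer. miR-30e-5p exceeded miR-30d-5p by 0.32 ± 0.30 in 7 of 8 baboons. These means include the month 9 and 15 libraries, whose values were known when miR-30e-5p was chosen. The log2 difference was 0.45 at month 9 and 0.87 at month 15, against 0.074 at month 3 and 0.20 at month 6. At month 0 alone the difference of this pair was 0.021 on the log2 scale (adjusted exact p = 0.844), so the 2 leading members did not differ beyond their spread before inoculation.

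miR-30e-5p was higher at month 15 than at month 0 in every baboon. At month 0 its level ran from 2780 to 12534 CPM with a median of 9201 CPM. At month 3 it ran from 5269 to 14678 CPM with a median of 10347 CPM. At month 6 the range was 5821 to 16471 CPM with a median of 10107 CPM. These 3 months overlapped over most of their ranges. At month 9 the range widened to between 4589 and 22386 CPM with a median of 13088 CPM. At month 15 it ran from 12357 to 24052 CPM with a median of 15726 CPM. The lowest library at month 15 lay just under the highest at month 0, and 7 of the 8 month 0 libraries were below every month 15 library.

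The mean of miR-30e-5p went from 9054 ± 3245 CPM at month 0 to 17054 ± 4168 CPM at month 15 (SD, n = 8), a log2 change of 0.98 ± 0.21 (SE of the edgeR fit paired by baboon) or 1.97-fold. Within baboons the ratio of month 15 to month 0 ran from 1.12 in PA8915 to 4.44 in PA8835. The baboon with the largest ratio was also the one with the lowest starting level. In PA8835 the share of all counts at month 0 was 0.376% (exact Clopper-Pearson 95% interval 0.364% to 0.389%). The highest library, PA8001 at month 15, had a share of 2.52% (2.50% to 2.54%). Such intervals cover counting error only, and they are narrow beside the spread between animals.

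At month 9 the log2 change of miR-30e-5p from month 0 was 0.58 ± 0.21, with 7 of 8 baboons higher. The exception was PA8003, whose level went from 9581 CPM at month 0 to 4589 CPM at month 9 and then to 15741 CPM at month 15. PA8872 and PA8915 had their highest level at month 9, with 22386 and 19559 CPM, and were lower again at month 15. The other 6 baboons had their highest level at month 15.

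**Figure D1:**
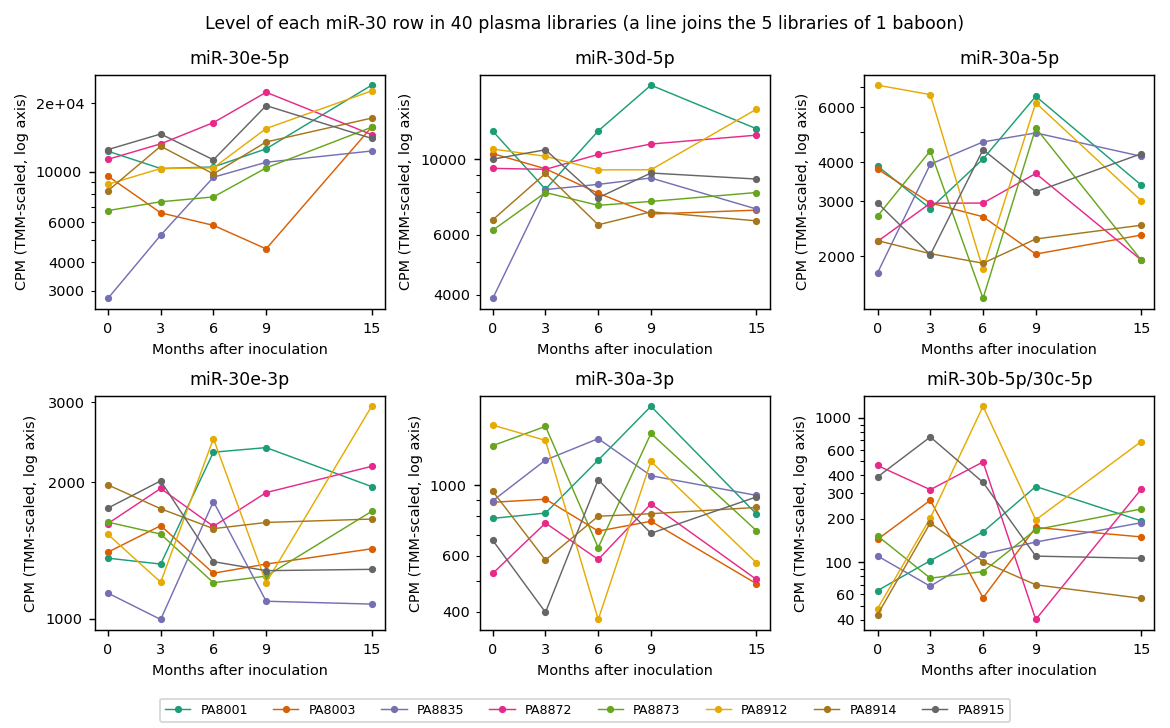
CPM (TMM-scaled, log axis) of the 6 miR-30 rows against months after inoculation, 1 line per baboon and 1 point per library. miR-30e-5p lies between 2780 and 12534 CPM at month 0 and between 12357 and 24052 CPM at month 15, while the other rows show no common direction among the 8 baboons.

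miR-30d-5p, which shares the seed of miR-30e-5p, had changes from month 0 that were smaller than their SE at months 9 and 15. It ran from 3908 to 12106 CPM (median 9714) at month 0, from 7992 to 10672 CPM (median 9221) at month 3 and from 6427 to 12123 CPM (median 8200) at month 6. At month 9 it ran from 6913 to 16515 CPM (median 8970) and at month 15 from 6602 to 14041 CPM (median 8375). All months overlapped, and the highest value came from the PA8001 library dominated by miR-122-5p. The log2 change from month 0 was 0.14 ± 0.15 (SE) at month 9 and 0.13 ± 0.15 at month 15, with 5 of 8 baboons higher at either month.

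miR-30a-5p had no common course. Its level ran from 1766 to 7071 CPM (median 2825) at month 0, from 2018 to 6596 CPM (median 2958) at month 3 and from 1462 to 4648 CPM (median 2816) at month 6. At month 9 it ran from 2029 to 6514 CPM (median 4325) and at month 15 from 1941 to 4258 CPM (median 2761). The log2 change from month 0 was 0.34 ± 0.26 (SE) at month 9, with 6 of 8 baboons higher, and -0.14 ± 0.26 at month 15, with 3 of 8 higher. The widest excursion was that of PA8912, whose level was 6596 CPM at month 3, 1813 CPM at month 6 and 6205 CPM at month 9. PA8873 showed the same dip, with 4355, 1462 and 5155 CPM.

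In the joined miR-30b-5p/30c-5p row the spread between libraries exceeded any difference between months. At month 0 it ran from 43.5 to 469 CPM with a median of 128 CPM, and at month 15 from 56.4 to 687 CPM with a median of 191 CPM. The largest value, 1205 CPM, was that of PA8912 at month 6, which was also the deepest library of the series. The lowest value, 40.2 CPM in PA8872 at month 9, rested on 38 counts. The log2 change from month 0 was 0.12 ± 0.53 (SE) at month 9 and 0.44 ± 0.52 at month 15, each with 6 of 8 baboons higher.

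The 3p arms had smaller changes than miR-30e-5p. miR-30e-3p, the other strand of the miR-30e hairpin, ran from 1138 to 1973 CPM (median 1578) at month 0 and from 1076 to 2942 CPM (median 1691) at month 15. Its log2 change from month 0 was -0.07 ± 0.18 (SE) at month 9, with 2 of 8 baboons higher, and 0.16 ± 0.18 at month 15, with 5 of 8 higher. miR-30a-3p ran from 529 to 1549 CPM (median 890) at month 0 and from 491 to 931 CPM (median 767) at month 15. Its log2 change was 0.18 ± 0.24 at month 9 and -0.36 ± 0.24 at month 15, with 3 of 8 baboons higher at the later month.

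In the edgeR quasi-likelihood fit over all 318 rows, with Benjamini-Hochberg adjustment and a threshold of 0.05, 13 rows were called at month 15 against month 0 (4.09%), of which 8 were higher (2.52%). One of the 6 miR-30 rows, miR-30e-5p, was among them, which was known when the family was chosen, so its place there is no test of it and nothing is read from the count. Without PA8912 the number of rows called fell to 2, without PA8872 to 3, and without PA8915 it was 20. Leaving out any of the 8 baboons changed this number by more than 1.5 times. The log2 change of miR-30e-5p itself ran from 0.81 without PA8835 to 1.08 without PA8915. Scaling with DESeq2 size factors lowered the month 15 changes by about the shift of the median row, which was 0.11 with TMM and 0.00090 with those factors. The change of miR-30e-5p was then 0.86. With upper-quartile factors that of miR-30d-5p at month 15 was -0.0031 and at month 9 -0.036, and the joined row had -0.068 at month 9. With library totals alone the median row changed by -0.28 at month 9, where miR-30d-5p then had -0.21, miR-30a-3p -0.18 and the joined row -0.28, against 0.27 for miR-30e-5p. At month 9 no row was called (0 of 318, 0%), with 11 rows at an unadjusted p under 0.05, 1 row called by DESeq2 and 0 by limma-voom. The 6 miR-30 rows had a median log2 change of 0.15 at month 15, beside 0.11 over all rows.

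The early comparisons are not free of the choice of the family, since earlier results were known and the month 0 libraries also enter the later contrasts. None of the 6 rows was called at month 3 against month 0, at month 6 against month 0 or at month 6 against month 3, and no row of the table was (0 of 318 and 0% in each). The adjusted p of the members was 0.9996 at month 3, 0.990 at month 6 and 0.996 between the 2 months (edgeR quasi-likelihood). Over all rows, 5, 11 and 2 passed an unadjusted p under 0.05 in the 3 comparisons, DESeq2 called 1 row in each and limma-voom called 0. For miR-30e-5p the log2 change was 0.15 ± 0.21 (SE) at month 3, with 6 of 8 baboons higher, and 0.19 ± 0.21 at month 6, with 5 of 8 higher. The largest early changes of a member were those of the joined row, 0.52 ± 0.51 at month 3 and 0.55 ± 0.53 at month 6. Without PA8912 the latter was -0.021.

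**Figure D2:**
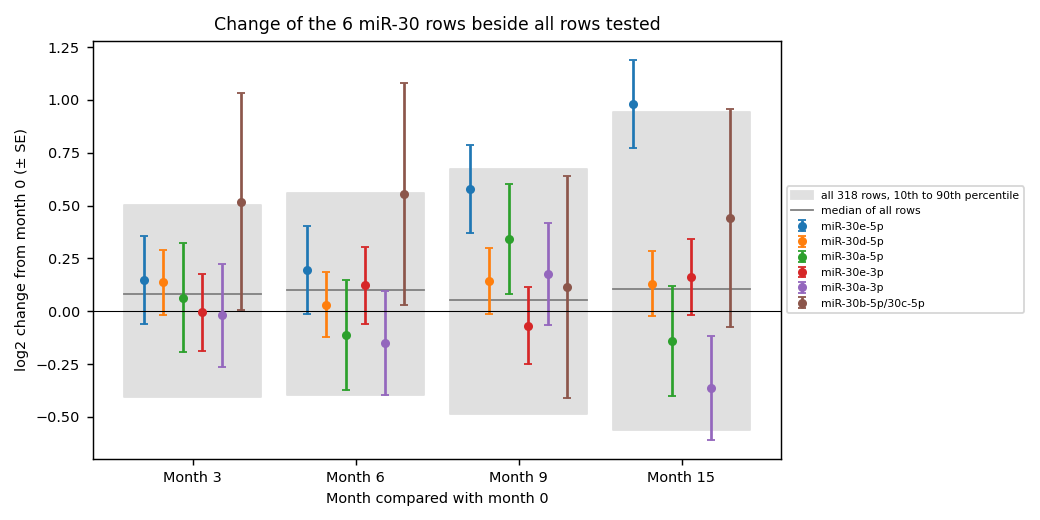
Log2 change from month 0 of the 6 miR-30 rows (points, with SE bars) at months 3, 6, 9 and 15. The grey band spans the 10th to 90th percentile of all 318 rows and the grey line is their median. miR-30e-5p reaches 0.58 at month 9 and 0.98 at month 15, where it lies just above the band, which ends at 0.94. By log2 change at month 15 it ranked 30th from the highest of 318 rows.

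Ratios between members of the same library do not depend on the scaling, but they do depend on how counts were divided between members. The ratio of miR-30e-5p to miR-30d-5p had a geometric mean of 1.01 at month 0, 1.05 at month 3, 1.15 at month 6, 1.37 at month 9 and 1.83 at month 15. Between month 0 and month 15 it changed by 0.85 ± 0.44 on the log2 scale (SD, n = 8), upwards in 8 of 8 baboons. miR-30e-5p exceeded miR-30d-5p in 5 of 8 libraries at month 0 and in 8 of 8 at month 15. These values too describe the contrast for which miR-30e-5p was chosen.

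The arms of the miR-30e hairpin differed more at month 15 than at month 0. The ratio of miR-30e-5p to miR-30e-3p had a geometric mean of 5.43 at month 0 and 9.78 at month 15, a log2 change of 0.85 ± 0.70 (SD), upwards in 7 of 8 baboons. For the miR-30a hairpin the ratio of miR-30a-5p to miR-30a-3p was 3.37 at month 0 and 4.00 at month 15, a log2 change of 0.25 ± 0.44, upwards in 6 of 8 baboons. Against the nearly identical miR-30a-5p, miR-30e-5p went from a ratio of 2.74 to one of 5.90, a log2 change of 1.11 ± 0.86, upwards in 7 of 8 baboons. The 5p arm was the more abundant of the pair in 40 of 40 libraries for either hairpin.

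**Figure D3:**
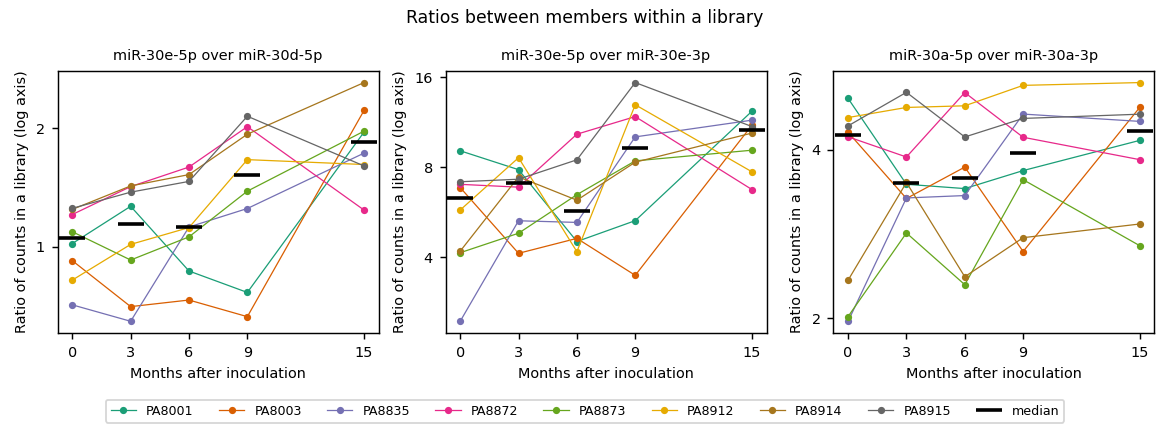
Ratio of counts within a library (log axis) against months after inoculation for miR-30e-5p over miR-30d-5p, miR-30e-5p over miR-30e-3p and miR-30a-5p over miR-30a-3p. Lines join the libraries of a baboon and black bars are medians. The ratio of miR-30e-5p to miR-30d-5p is above 1 in 8 of 8 libraries at month 15 and in 5 of 8 at month 0.

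The members differed in how closely their levels followed each other from library to library. After subtracting each baboon's mean log2 CPM, the arms of the miR-30a hairpin had a Pearson correlation of 0.87 over the 40 libraries, while those of the miR-30e hairpin had one of 0.19. miR-30e-5p had a correlation of 0.49 with miR-30d-5p and 0.18 with miR-30a-5p. The libraries share baboons, months and scaling factors, so these coefficients are descriptions. Both arms of miR-30a were lower in deeper libraries, with correlations of -0.44 (miR-30a-5p) and -0.59 (miR-30a-3p) with log2 total count. The other members were higher in deeper libraries, with 0.33 for miR-30e-5p, 0.35 for miR-30d-5p, 0.34 for miR-30e-3p and 0.60 for the joined row. With the log2 share of miR-122-5p both arms of miR-30a had a correlation of 0.63 and miR-30e-5p one of -0.085. With the haemolysis index the values were 0.027 for miR-30a-5p, -0.21 for miR-30e-5p and -0.42 for miR-30e-3p.

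**Figure D4:**
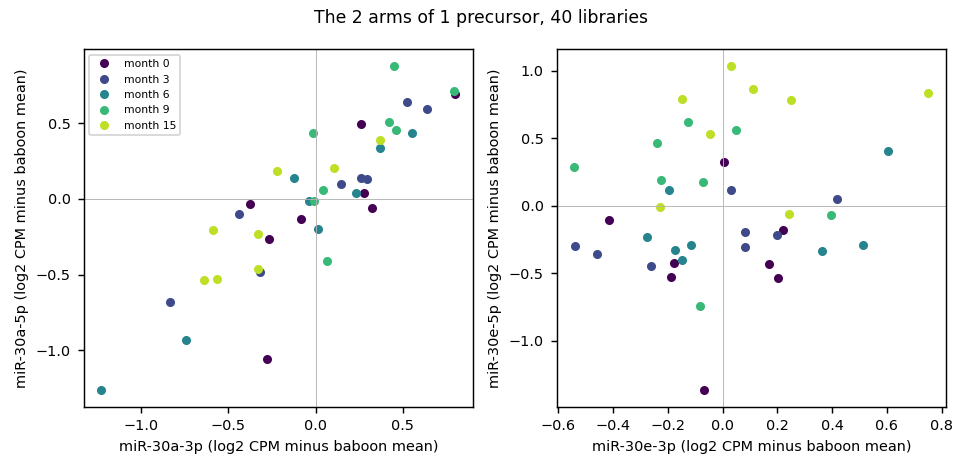
Log2 CPM minus the mean of the baboon for the 5p arm (vertical) against the 3p arm (horizontal) of miR-30a (left) and miR-30e (right), 1 point per library and coloured by month. The points of miR-30a lie along a diagonal (correlation 0.87), those of miR-30e do not (0.19).

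Differences between animals were tested in the same fit with 7 baboon coefficients in a joint test, a measure the choice of the family had not used. Over all rows 103 of 318 differed between baboons (32.4%), and 2 of the 6 miR-30 rows did, a share near that of the table. Without PA8914 the number of rows called was 50. For miR-30d-5p (adjusted p = 0.00637, edgeR quasi-likelihood) the mean over the 5 libraries of a baboon ran from 7157 ± 1103 CPM in PA8914 to 12244 ± 2952 CPM in PA8001 (SD). This call was lost with upper-quartile scaling (adjusted p = 0.249) and without the filter on low counts (adjusted p = 0.348). For miR-30e-5p (adjusted p = 0.00864) it ran from 8181 ± 4026 CPM in PA8835 to 15619 ± 4218 CPM in PA8872. The joined row (adjusted p = 0.0540), miR-30a-5p (0.0871), miR-30e-3p (0.200) and miR-30a-3p (0.200) did not pass, although the joined row had the widest range of means, from 91.7 CPM in PA8914 to 468 CPM in PA8912. Each of these 4 passed under some other settings. The joined row passed under 7 of 22, among them library totals alone (adjusted p = 0.00280) and the DESeq2 test (0.00718), and miR-30a-5p under 5, among them library totals alone (0.00627) and the DESeq2 test (0.0488). miR-30a-3p passed under 2 of 22, log2 total count (0.0342) and the share of miR-122-5p (0.0423) as covariates, and miR-30e-3p under 1, library totals alone (0.0152).

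**Figure D5:**
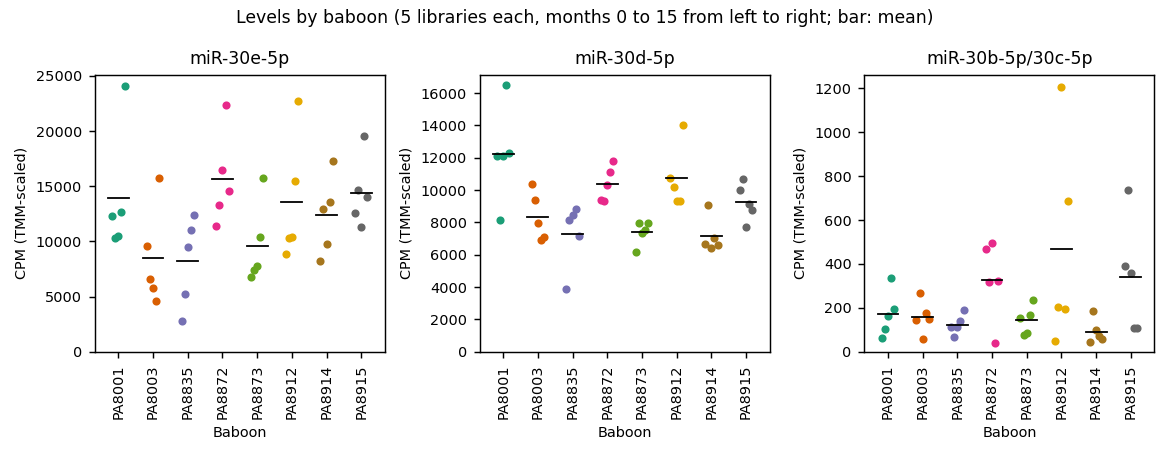
CPM of miR-30e-5p, miR-30d-5p and the joined miR-30b-5p/30c-5p row by baboon, with the 5 libraries of each animal as points from month 0 (left) to month 15 (right) and the mean as a bar. Means of miR-30e-5p run from 8181 to 15619 CPM and those of miR-30d-5p from 7157 to 12244 CPM.

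The remaining arms of the family in the table are minor products of the same hairpins, and all 4 were tested. Their mean levels were 55.5 CPM for miR-30c-1-3p, 27.6 CPM for miR-30b-3p, 16.1 CPM for miR-30c-2-3p and 11.9 CPM for miR-30d-3p. At month 15 none of the 4 was called and 1 of 4 was higher than at month 0, with log2 changes of -0.14 ± 0.30 (SE) for miR-30b-3p and 0.22 ± 0.25 for miR-30c-1-3p and a median of -0.16. miR-30c-1-3p differed between baboons (adjusted p = 0.0395, edgeR quasi-likelihood), and its correlation with miR-30a-5p within baboons was -0.68.

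The rows whose levels were most like that of miR-30e-5p were found by the correlation within baboons over 40 libraries. They were miR-210-3p (0.83), which hypoxia is known to induce, miR-1307-3p (0.73) and miR-126-3p (0.66), which is in the platelet list below. Next came the joined row of miR-1185-1-3p and miR-1185-2-3p from the imprinted DLK1-DIO3 cluster (0.63, mean level 10.5 CPM) and miR-221-3p (0.62), also in the platelet list. The other tested rows of the platelet list had lower correlations with miR-30e-5p, from 0.0025 to 0.38. miR-126-5p, in the endothelial and stromal list below, had 0.51, and the other rows of that list -0.43 to 0.021. Of the 5 rows found in this way, 4 were also among the 5 most like miR-30e-5p when baboon means were not subtracted. Their log2 changes at month 15 ran from 0.66 for miR-1307-3p to 2.17 for the joined DLK1-DIO3 row. Month means were not subtracted for these correlations, so the month 15 rise of miR-30e-5p entered the choice of these rows. Their own rise is therefore no separate result. For miR-30d-5p the likeness was weaker, with miR-369-3p (0.52), miR-425-3p (0.51), miR-28-3p (0.50), miR-361-5p (0.45) and miR-340-5p (0.44), of which 2 of 5 were retained without subtracting means. The mean level of miR-369-3p was only 4.73 CPM, near the 0.374 to 3.97 CPM that a count of 0 allows.

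Lists of microRNAs that mark blood cells and tissues are set beside the course of miR-30e-5p. Over all 318 rows, 189 (59.4%) were higher at month 15 than at month 0 and 4.09% were called. Of 9 tested platelet markers, 9 were higher at month 15 than at month 0 and 1 was called, with a median log2 change of 0.49 and a summed level of 62977 to 119598 CPM at month 0 and 74307 to 179976 CPM at month 15. That count goes by the sign of the fitted change. By animal the 9 were higher in between 3 of 8 baboons (miR-24-3p) and 8 of 8 (miR-126-3p), with miR-28-3p in 4 of 8. miR-24-3p had a count of 0 in 27 of 40 libraries and a log2 change of 3.14 ± 3.73 (SE). In that list miR-126-3p changed by 0.72 ± 0.21 (SE) and was called, and miR-223-3p by 0.74 ± 0.31. Of 5 myeloid markers, 4 were higher and 1 was called (median 0.52), with miR-223-3p shared with the platelet list and miR-223-5p at 0.83 ± 0.23, and the sum ran from 5850 to 12471 CPM at month 0 and from 10108 to 18352 CPM at month 15. Of 5 lymphocyte markers, 1 was higher and 2 were called lower (median -0.49), with miR-150-5p at -0.31 ± 0.40 and miR-342-3p at -0.81 ± 0.24, and the sum ran from 3613 to 8525 CPM at month 0 and from 2790 to 7903 CPM at month 15. The part of these cell types in the level of miR-30e-5p was not tested.

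Of 9 red cell markers listed, 5 were tested, 1 of the 5 was higher at month 15 and none was called (median -0.43), with miR-451a at -0.31 ± 0.43 (SE) and miR-486-5p at -0.43 ± 0.31, while miR-4732-3p and miR-4732-5p were at 0 in 40 of 40 libraries. Their sum ran from 73056 to 220325 CPM at month 0 and from 26921 to 153607 CPM at month 15. The haemolysis index differed between months 15 and 0 by -0.83 ± 1.67 (SD, higher in 3 of 8 baboons, exact sign-flip p = 0.0938) and log2 total count by 0.69 ± 0.91 (higher in 7 of 8, exact sign-flip p = 0.0625). With the haemolysis index as a covariate the change of miR-30e-5p at month 15 was 0.97, with log2 total count 0.92 and with the share of miR-122-5p 0.96.

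Of 4 tested liver markers, 1 was higher at month 15 and none was called (median -0.16), with miR-122-5p at 0.13 ± 0.58 (SE) and miR-885-5p at -0.02 ± 0.83, and sums of 8023 to 694674 CPM at month 0 and 3319 to 219678 CPM at month 15. Of 7 tested kidney and epithelial markers, 2 were higher and none was called (median -0.66), with miR-200a-3p at -1.87 ± 0.62 and miR-200c-3p at -0.25 ± 0.42, and sums of 76.1 to 531 CPM and 61.0 to 358 CPM. Of 8 endothelial and stromal markers, 2 were higher and 1 was called lower (median -0.24), with miR-126-5p at 0.45 ± 0.23 and miR-100-5p at -1.16 ± 0.30, and sums of 24229 to 49825 CPM and 24613 to 60124 CPM. Of 10 tested microRNAs linked with miR-30 to fibrosis and epithelial state, 4 were higher at month 15 and none was called (median -0.18), with miR-29a-3p at -0.23 ± 0.27 and miR-29b-3p at -0.29 ± 0.21. The part of these tissues in the levels of the miR-30 rows was not tested.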

How the data were processed

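Small RNA from 40 baboon plasma samples was sequenced on an Illumina NovaSeq X after adapter ligation, with molecular identifiers added at cDNA synthesis, per the labels' protocols. The authors deposited whole-number counts per mature microRNA name, without normalization. The sources used here do not say whether identifiers or reads were counted, or name an aligner or database. The submitters' processing notes name R 4.5.0, edgeR and limma. Rows carry human names, and no coordinates or sequences came with them, so none are printed and rows with a shared seed were not searched for.

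Rows were kept with filterByExpr by month (minimum count 10, minimum total 15), which left 318 rows with 99.98% of the counts, 21 of them joined names. Counts were scaled with TMM and tested with edgeR 4.0.16 (quasi-likelihood F test; R 4.3.3, limma 3.58.1), with month and baboon as terms in one model of the 40 libraries, with Benjamini-Hochberg adjustment over 318 rows and a threshold of 0.05. DESeq2 1.42.0 and limma-voom served as alternatives. The SE is the log2 change divided by the square root of F. Log2 CPM used a prior count of 2. A count of 0 allows up to 3 counts, or 0.374 to 3.97 CPM.

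Libraries were paired by the baboon number in the labels. Deviations from the month mean had a mean correlation across rows of 0.208 within a baboon and -0.029 between baboons, and 0 of 780 pairs of libraries were identical. The members, lists and tests were chosen with earlier results of these data known. Named rows are the members, the 2 rows of the haemolysis index, the 5 rows most correlated with miR-30e-5p and with miR-30d-5p, and the first 2 tested entries of each list. The other arms were also named in full, and 2 absent red cell markers, miR-24-3p, miR-223-5p and the correlation of miR-30c-1-3p with miR-30a-5p were chosen after their values were seen.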

Additional observations from a re-analysis of the deposited data

Results flagged for a closer look

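Single libraries stood apart from the other 7 of their month in 10 of 50 groups (Dixon's criterion on the gap to the nearest library at the 95% level). Independent groups with normally spread levels would give 2.5. The rows share libraries and scaling factors, and CPM was used without logs, so no excess is read from this count. For miR-30d-5p the highest library at month 9 was PA8001 with 16515 CPM, and for miR-30a-5p the highest at month 0 was PA8912 with 7071 CPM. In the joined miR-30b-5p/30c-5p row PA8915 stood out at month 3 with 739 CPM, and PA8912 at month 6 with 1205 CPM and at month 15 with 687 CPM. Among the minor arms, miR-30b-3p was lowest in PA8003 at month 0 (8.23 CPM) and highest in PA8914 at month 3 (55.3 CPM). miR-30c-2-3p was highest in PA8873 at month 0 (35.6 CPM) and in PA8835 at month 6 (30.4 CPM), and miR-30d-3p in PA8835 at month 6 (18.5 CPM). No library of miR-30e-5p stood apart in any month.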

How the results depend on the processing

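The log2 change of miR-30e-5p at month 15 ran from 0.81 to 1.08 over 24 alternatives, which describes the values it was chosen for and is no test of it. The row was called in 22 of the 24, but not with no replicate block or with the 2 months alone. Pairing by baboon mattered for the count of rows at month 15, which was 13 with the block and 2 with no replicate block. It was 4 with library totals alone, 0 with the 2 months alone, 3 with the haemolysis index as covariate, 2 with log2 total count as covariate and 8 with miR-122-5p taken out. With alternatives chosen after seeing the data it was 7 with the share of miR-122-5p as covariate and 4 without the month 15 library of PA8872. Leaving out each baboon gave 2 to 20 (7 without PA8001, 4 without PA8003, 4 without PA8835, 5 without PA8873, 6 without PA8914). Without a filter on low counts 2 rows were called at month 3, 1 at month 6, 2 at month 6 against month 3 and 2 at month 9, and DESeq2 called 1 in each. Rows differing between baboons numbered 155 with library totals alone and 50 to 108 when each baboon was left out, 50 being without PA8914. The difference of miR-30e-5p and miR-30d-5p at month 0 alone was 0.021. The cause was not tested.

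Early changes of members, none of them called, changed sign under some settings. With library totals alone, month 3 gave -0.10 for miR-30a-5p, -0.040 for miR-30d-5p and -0.021 for miR-30e-5p. With the 2 months alone miR-30a-5p gave -0.012. With the share of miR-122-5p as covariate month 3 gave -0.0516 for miR-30a-5p and 0.030 for miR-30e-3p, and month 6 against 3 gave 0.014 for miR-30a-5p, -0.18 for the joined row and 0.076 for miR-30a-3p. With log2 total count as covariate miR-30a-3p gave 0.11 at month 3. Without the month 9 library of PA8001, miR-30e-3p gave 0.0083 at month 3 and miR-30e-5p -0.017 at month 6 against 3. For miR-30d-5p at month 6 the change of 0.032 became -0.045 with size factors of DESeq2, -0.059 under upper-quartile scaling, -0.082 with library totals, -0.0180 with no filter, -0.021 with the stricter filter, -0.045 with the DESeq2 test, -0.0182 with the 2 months alone, -0.017 with log2 total count, -0.0308 with miR-122-5p taken out, -0.026 without the month 9 library of PA8001, -0.0313 without the month 6 library of PA8912 and -0.047 without the month 15 library of PA8872. Without the month 6 library of PA8912, miR-30e-3p gave -0.061 at month 6 and the joined row -0.38 at month 6 against 3.

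Leaving out each baboon gave, at month 3, -0.072 to 0.14 for miR-30a-5p, -0.019 to 0.18 for miR-30d-5p, -0.10 to 0.084 for miR-30a-3p and -0.056 to 0.0073 for miR-30e-3p. At month 6 it gave -0.32 to 0.035 for miR-30a-5p, -0.021 to 0.73 for the joined row, -0.13 to 0.10 for miR-30d-5p, -0.026 to 0.34 for miR-30e-5p and -0.057 to 0.20 for miR-30e-3p. At month 6 against 3 it gave -0.36 to 0.016 for miR-30a-5p, -0.41 to 0.30 for the joined row, -0.056 to 0.12 for miR-30e-5p, -0.33 to 0.027 for miR-30a-3p and -0.012 to 0.24 for miR-30e-3p. No test of differences between baboons was kept for the setting with the 2 months alone, so that setting gives no result for them. The search for rows with a shared seed was not run.

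Late changes of members other than miR-30e-5p also changed sign under some of the 24 alternatives. The joined row was above 0 in 17 of 24 at month 9 (-0.31 to 0.49) and in 23 of 24 at month 15 (-0.21 to 0.71), both lowest values being with log2 total count as covariate, and leaving out each baboon gave -0.29 to 0.49 at month 9. miR-30a-5p was above 0 in 2 of 24 at month 15 (-0.32 to 0.10). miR-30d-5p was above 0 in 22 of 24 at month 9 (-0.21 to 0.26) and in 21 of 24 at month 15 (-0.028 to 0.24). miR-30a-3p was above 0 in 22 of 24 at month 9 (-0.18 to 0.38) and miR-30e-3p in 23 of 24 at month 15 (-0.00080 to 0.25).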
